A study of Mus musculus with 3 samples.

Results

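Aminoacyl-tRNA synthetases join each amino acid to its transfer RNA, the step that supplies ribosomes with charged tRNA. One set of enzymes serves the ribosomes of the cytosol, and a separate set, encoded in the nucleus and imported, serves the ribosomes of mitochondria, which make the core subunits of the respiratory chain. The transcription factor ATF4, whose own translation rises when eIF2 is phosphorylated, is known to activate many of the cytosolic enzymes together with genes of amino acid uptake and synthesis. One of the eIF2 kinases, encoded by Eif2ak1, is known to respond to a lack of heme.

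The genes were found by symbol: probe sets with a single gene symbol that names a synthetase, or one of the scaffold proteins Aimp1 and Aimp2 of the multi-synthetase complex, were taken, and the brightest probe set over the 3 arrays stood for each gene. The rule gave 37 of the 18193 genes on the array, measured by 75 of 34945 probe sets with 1 symbol. They comprised 19 cytosolic enzymes, 16 mitochondrial enzymes with symbols ending in 2, and the 2 scaffold proteins. The rule used no measured difference between the diets.

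Gastrocnemius muscle of male C57BL/6J mice was measured after 15 weeks on diets begun at 6 weeks of age. The Control group received D12450B with 10% of energy as fat, the HF group received D12492 with 60% of energy as fat, and the HF + SFC group received the HF diet to which sodium ferrous citrate, an iron salt, was added at 0.023% by weight. The question was how the high-fat diet, and iron added to it, changed transcription in muscle. Each group was a mix of the samples of all its mice on 1 GeneChip Mouse Genome 430 2.0 array, so no spread between mice was measured, no test was possible, and every difference below compares 3 pooled samples. An age of 21 months stands in the labels of the samples, which differs from the ages stated in the design.

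Values are MAS5 signals, the linear intensities that the authors deposited, scaled to the same trimmed mean on each array. The median signal of an array, over all its probe sets, was 63.6 (Control), 67.4 (HF) and 68.0 (HF + SFC). Signals below are given in the order Control, HF, HF + SFC. All 37 brightest probe sets were above that median on every array, with signals from 96.9 to 11893. The 8 skeletal muscle markers had signals from 27999 to 66676 on the 3 arrays, so the label of the tissue held. The 3′ to 5′ signal ratio of beta-actin, a measure of RNA and labelling quality, was 1.09, 1.52 and 1.15 on Control, HF and HF + SFC, and that of Gapdh was 0.842, 0.832 and 0.820. The part of this difference in the results was not tested.

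Of the 19 cytosolic enzymes, 12 were listed as ATF4-responsive from general knowledge. The C/EBP-ATF composite motif that ATF4 is known to bind, TGATGNAA on either strand, was searched in RefSeq promoters of build GRCm38.p6, from 250 bases before to 50 after each start, and 28 of the 37 genes were found in that table. It was present for 5 of 8 ATF4-responsive enzymes, for 0 of 4 other cytosolic enzymes, for 0 of 14 mitochondrial enzymes and for 0 of 2 scaffold genes. Of all 32851 promoters of the same length, 3.97% held it. The windows with the motif are shown because, among the genes searched, it was found only for enzymes of the ATF4 list, and the array did not measure it. A match describes these letters only, and it is neither a binding site nor a cause. One window of 30 bases is given for each gene, with the match nearest to the start, read along the strand of the gene, and capitals mark the motif. They lie for Aars at chr8:111033840-111033869 (plus strand), Gars at chr6:55037960-55037989 (plus strand), Iars at chr13:49682126-49682155 (plus strand), Tars at chr15:11399655-11399684 (minus strand) and Yars at chr4:129189895-129189924 (plus strand). In Yars the motif lies on the strand of the gene, and in the other windows on the opposite strand.
Aars: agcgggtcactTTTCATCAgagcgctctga
Gars: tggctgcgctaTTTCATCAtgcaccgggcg
Iars: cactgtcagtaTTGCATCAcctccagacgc
Tars: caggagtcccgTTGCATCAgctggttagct
Yars: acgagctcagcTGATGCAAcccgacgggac

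Of the 37 genes, 27 had a lower signal in HF than in Control, and the median of the log2 ratios was -0.12. Among all genes 50.7% were higher, and the median was 0.0066. Among the 10678 genes above the array median on all arrays, as all members were, 47.7% were higher and the median was -0.013. The cytosolic enzymes were lower in 16 of 19 cases (median -0.14) and the mitochondrial enzymes in 10 of 16 (median -0.13). With iron added, 25 of the 37 genes had a higher signal than in HF alone, and the median was 0.093. Among all genes 51.4% were higher (median 0.010), and among genes above the array median 51.6% were (median 0.0079). Cytosolic enzymes were higher in 13 of 19 cases (median 0.082) and mitochondrial enzymes in 10 of 16 (median 0.11). These shifts were small: a median of -0.14 is a signal of 0.910 of Control. The HF array enters both comparisons, so an error on it would move their ratios in opposite directions.

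**Figure D1:**
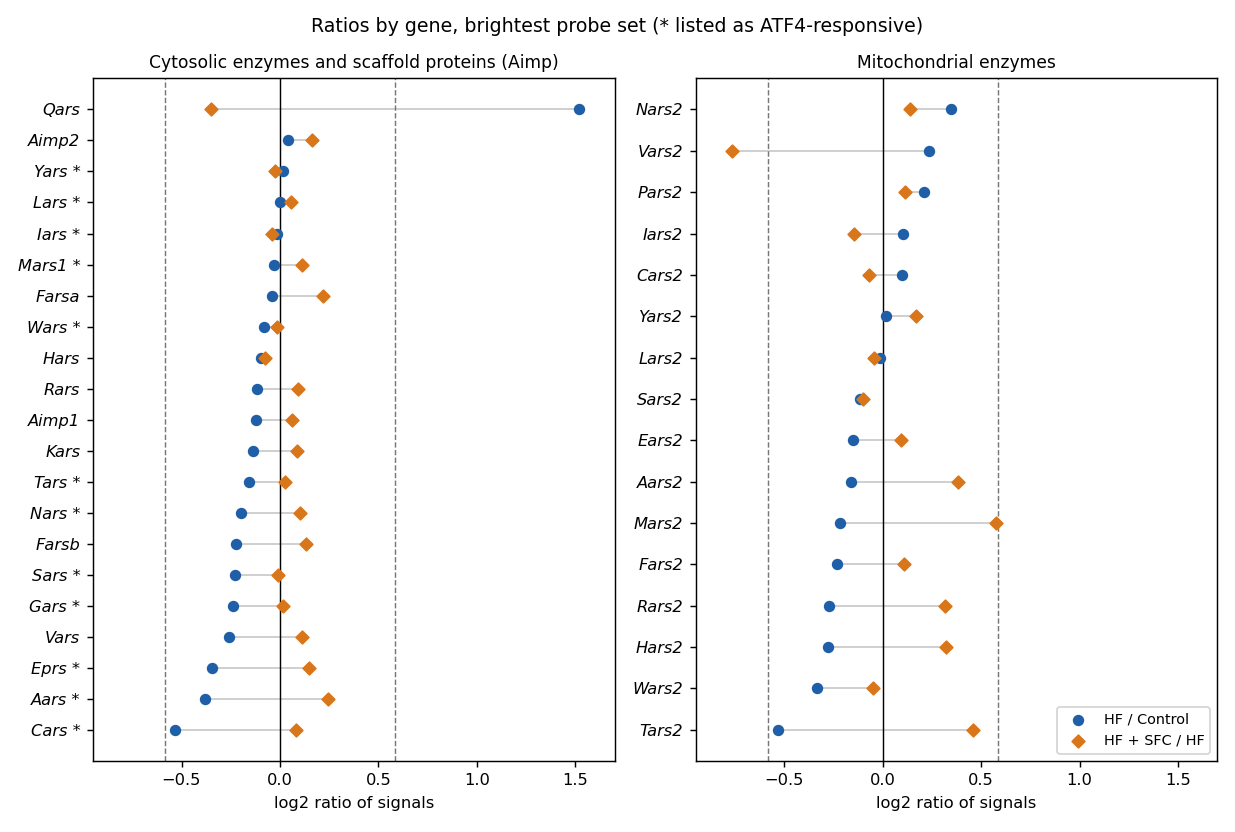
Log2 ratios of the signals of HF to Control (circles) and of HF + SFC to HF (diamonds) for each gene, from its brightest probe set and 1 pooled array per group. Dashed lines mark 1.5-fold. Most circles lie left of 0, Qars lies far to the right at 1.52, and Vars2 is the only diamond past the dashed line.

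The methods used 1.5-fold as a threshold. Between HF and Control, 1 of the 37 genes passed it, namely Qars, whereas 29.3% of all genes and 6.44% of genes above the array median did. Between HF + SFC and HF it was 1 gene, Vars2, against 27.2% and 4.17%. Between HF + SFC and Control it was again Qars alone, against 29.0% and 5.68%. When any probe set of a gene was allowed to pass, 7, 6 and 8 members did in these comparisons, against 48.6%, 46.7% and 48.3% of all genes. Each count of members, as a share of the 37, lay below these background shares. A count of 1 gene is too small to set it apart from the shares of genes above the array median. The shares for any probe set cover all genes, dim ones included, whereas the brightest probe set of every member was above the array median. The gene nearest the threshold from below was Mars2, at 1.49-fold in HF + SFC against HF.

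Among the ATF4-responsive enzymes, 10 of 12 had less signal in HF than Control (median log2 ratio -0.18). The signal of Cars, which charges cysteine tRNA, was 735 (Control), 508 (HF) and 537 (HF + SFC). Aars, the alanine enzyme, gave 2644, 2028 and 2402 in the same order. Eprs, a fused enzyme for glutamate and proline, gave 5917, 4664 and 5161. These had the lowest ratios of the cytosolic set in HF, at 0.691, 0.767 and 0.788 of Control. All were nearer to Control in HF + SFC, though Cars only reached 0.731 of it. They were named for a low HF signal, so an error on that array alone would also give such a return. Gars, the glycine enzyme of both compartments, had 3353, 2843 and 2872. Nars, which charges asparagine tRNA, had 5987, 5224 and 5609. Sars, the serine enzyme, had 1952, 1666 and 1652. Of these only Nars was more than 5% above its HF signal in HF + SFC.

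The remaining ATF4-responsive enzymes differed less. Tars, for threonine, gave signals of 1708 (Control), 1531 (HF) and 1559 (HF + SFC). Wars, the tryptophan enzyme that interferon-gamma is known to induce, gave 781, 737 and 730. Iars, for isoleucine, gave 3989, 3945 and 3833. All of these were highest in Control. The methionine enzyme Mars1 had 2002, 1964 and 2119. Lars, the leucine enzyme, also known as a leucine sensor of mTORC1, had 1505, 1507 and 1566. Yars, for tyrosine, had 700, 708 and 694. Lars and Yars were the only ATF4-responsive enzymes with a higher signal in HF than in Control, by under 2%. Of the genes with the motif, the HF to Control ratio was 0.767 for Aars, 0.848 for Gars, 0.989 for Iars, 0.897 for Tars and 1.01 for Yars, which lies within the range of the whole list, 0.691 to 1.01.

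Relative to HF, the ATF4-responsive enzymes in HF + SFC had a median of 0.040 and 8 of 12 were higher. Against Control they were at -0.11 and 10 of 12 were lower. The other 7 cytosolic enzymes had medians of -0.12 for HF against Control, 0.093 for HF + SFC against HF and -0.048 for HF + SFC against Control. The median of the ATF4-responsive list was lower than these by a difference of -0.061, -0.053 and -0.066, which was not tested. In HF against Control the order depended on the probe sets. With the mean of all probe sets of a gene, the ATF4-responsive enzymes were at -0.068 and the other cytosolic enzymes at -0.14.

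The other cytosolic enzymes were lower in HF in 6 of 7 cases. Vars, the valine enzyme, had signals of 620 (Control), 519 (HF) and 560 (HF + SFC). Farsb, the beta subunit of the phenylalanine enzyme, had 2987, 2556 and 2803. Farsa, its alpha subunit, had 464, 451 and 525. The lowest signal of both subunits was in HF, and HF + SFC stood above it by 1.10-fold for Farsb and 1.16-fold for Farsa. Kars, the lysine enzyme of both compartments, gave 3040, 2767 and 2940. Rars, for arginine, gave 2638, 2435 and 2597. Hars, for histidine, gave 1170, 1096 and 1041. Kars and Rars lay within 4% of Control in HF + SFC, whereas Hars was lowest there.

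Qars, the glutamine enzyme, stood apart on its brightest probe set, with signals of 1323 (Control), 3794 (HF) and 2975 (HF + SFC), a ratio of 2.87 in HF against Control. Its other probe sets did not show this. The next brightest gave 2315, 1967 and 2202, another gave 1510, 1242 and 1437, and the dimmest, below the array median, gave 33.9, 30.7 and 34.5. Each of these was lower in HF than in Control. With the next brightest probe set in its place, the log2 ratio of Qars was -0.23 in place of 1.52, and 17 of 19 cytosolic enzymes were lower in HF. The brightest and the next brightest probe set are both of the kind (_x_at) that other transcripts can also bind. That kind therefore does not set them apart, and why they differed was not tested.

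**Figure D2:**
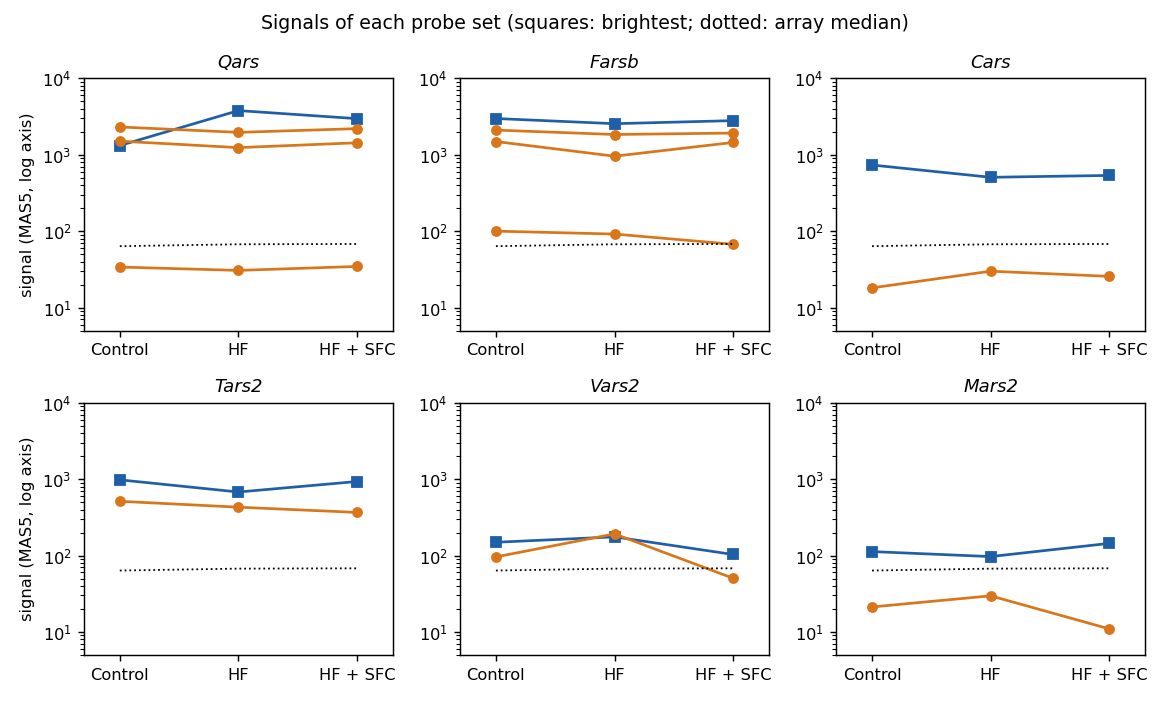
Signals of every probe set of 6 genes on the 3 arrays (log axis, MAS5 units), with the brightest as squares and the array median dotted. The brightest Qars probe set crosses the others above the array median. Those of Farsb above the array median are all lowest in HF, at 0.856, 0.875 and 0.643 of Control.

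The scaffold proteins of the multi-synthetase complex, which hold several enzymes together, differed little between the arrays. Aimp1 had signals of 5475, 5023 and 5233 in Control, HF and HF + SFC. Aimp2 had 10334, 10634 and 11893 on its brightest probe set and 9457, 9586 and 10618 on the other. Of the 7 enzymes of the complex analysed here, 5 had less signal in HF than Control (median -0.028). The 12 cytosolic enzymes outside it had a median of -0.21, with 11 of 12 lower. With Qars from its next brightest probe set, the enzymes of the complex were at -0.12 with 6 of 7 lower, so much of the gap rested on that probe set. Against Control, HF + SFC gave -0.023 (-0.048 with the other Qars probe set) for the complex and -0.14 for the rest.

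Synthetases fall into class I and class II by the fold of the catalytic domain. The 9 cytosolic class II enzymes (Aars, Farsa, Farsb, Gars, Hars, Kars, Nars, Sars and Tars) all had a lower signal in HF than in Control (median -0.20), and 8 of 9 were below Control in HF + SFC. Of the 10 cytosolic class I enzymes, 7 were lower in HF, with a median of -0.055. The fused enzyme Eprs, at 0.788 of Control, was counted as class I by its glutamate part, although its proline part is of class II. Counting both compartments, class II was lower in HF in 14 of 16 genes (median -0.18) and class I in 12 of 19 (median -0.028). With Qars, a class I enzyme, from its next brightest probe set, the class I medians in HF were -0.099 for the cytosol and -0.083 for both compartments. After iron, relative to HF, class II was higher in 13 of 16 genes (median 0.11) and class I in 10 of 19 (median 0.055, or 0.082 with the other Qars probe set). The 6 enzymes for the branched-chain amino acids, which muscle is known to oxidise, had medians of -0.0054 and -0.044 in these comparisons.

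The SD of the log2 ratios of the mitochondrial enzymes was 0.24 in HF against Control and 0.31 in HF + SFC against HF. For the 19 cytosolic enzymes it was 0.41 and 0.13, and without Qars 0.15 and 0.087, so which compartment spread more widely in HF against Control turned on Qars. Tars2, for threonine, had signals of 980 (Control), 679 (HF) and 932 (HF + SFC). The tryptophan enzyme Wars2 had 267, 212 and 205. Hars2, for histidine, had 536, 442 and 553. These had the lowest HF to Control ratios of the compartment, at 0.693, 0.794 and 0.824. Rars2, for arginine, gave 721, 597 and 745. Fars2, for phenylalanine, gave 1013, 861 and 927. Mars2, the methionine enzyme, gave 113, 96.9 and 144. On these probe sets Tars2, Hars2, Rars2, Fars2 and Mars2 were all lowest in HF, and Wars2 was lowest in HF + SFC. The other Fars2 probe set, also above the array median, gave 454, 476 and 395, highest in HF.

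Aars2, for alanine, followed with 330 (Control), 294 (HF) and 384 (HF + SFC). Ears2, for glutamate, had 243, 219 and 234. Sars2, for serine, had 221, 204 and 190. The highest ratios of the compartment in HF + SFC against HF were those of Mars2 at 1.49-fold, Tars2 at 1.37-fold and Aars2 at 1.30-fold. Lars2, for leucine, gave 1411, 1398 and 1354. On this probe set it ranged over less than 5%, whereas another above the array median gave 108, 145 and 104, highest in HF.

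A further 6 mitochondrial enzymes were higher in HF than in Control. Nars2, for asparagine, had signals of 288 (Control), 366 (HF) and 403 (HF + SFC). Pars2, for proline, had 121, 140 and 151. Both were highest in HF + SFC, at 1.40-fold and 1.25-fold of Control. Iars2, for isoleucine, gave 1357, 1460 and 1320. Cars2, for cysteine, gave 554, 593 and 565. Yars2, for tyrosine, gave 594, 601 and 676. On these probe sets Iars2 and Cars2 were highest in HF, and Yars2 in HF + SFC. The next brightest gave another order for each. It had 65.5, 93.8 and 117 for Iars2, 261, 253 and 320 for Cars2, and 546, 740 and 540 for Yars2.

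Vars2, the mitochondrial valine enzyme, had signals of 149 (Control), 176 (HF) and 103 (HF + SFC), a ratio of 0.588 in HF + SFC against HF. Its other probe set gave 96.0, 192 and 50.4. Both probe sets were highest in HF and lowest in HF + SFC, but the other was below the array median on HF + SFC. With an offset of 50 added to all signals, the log2 ratio of Vars2 was -0.56 in place of -0.77, and no gene passed 1.5-fold.

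The 13 amino acids with a cytosolic and a mitochondrial enzyme of the same letter were compared pair by pair. In HF against Control, both enzymes of a pair were lower in 7 pairs and both were higher in 1. The mitochondrial enzyme was higher and the cytosolic lower in 4 pairs (Cars2, Iars2, Nars2 and Vars2). The gap was widest for Cars and Cars2, at log2 ratios of -0.53 and 0.098. Between HF + SFC and HF, both enzymes were higher in 5 pairs and both lower in 3. The valine pair was the farthest apart there, with Vars at 0.11 and Vars2 at -0.77. The difference between the compartment medians was -0.0037, -0.029 and -0.089 for HF against Control, HF + SFC against HF and HF + SFC against Control, and the sign was not kept for the first and the second: the first turned with quantile normalization, and the second turned to 0.12 when probe sets open to several transcripts were left out.

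**Figure D3:**
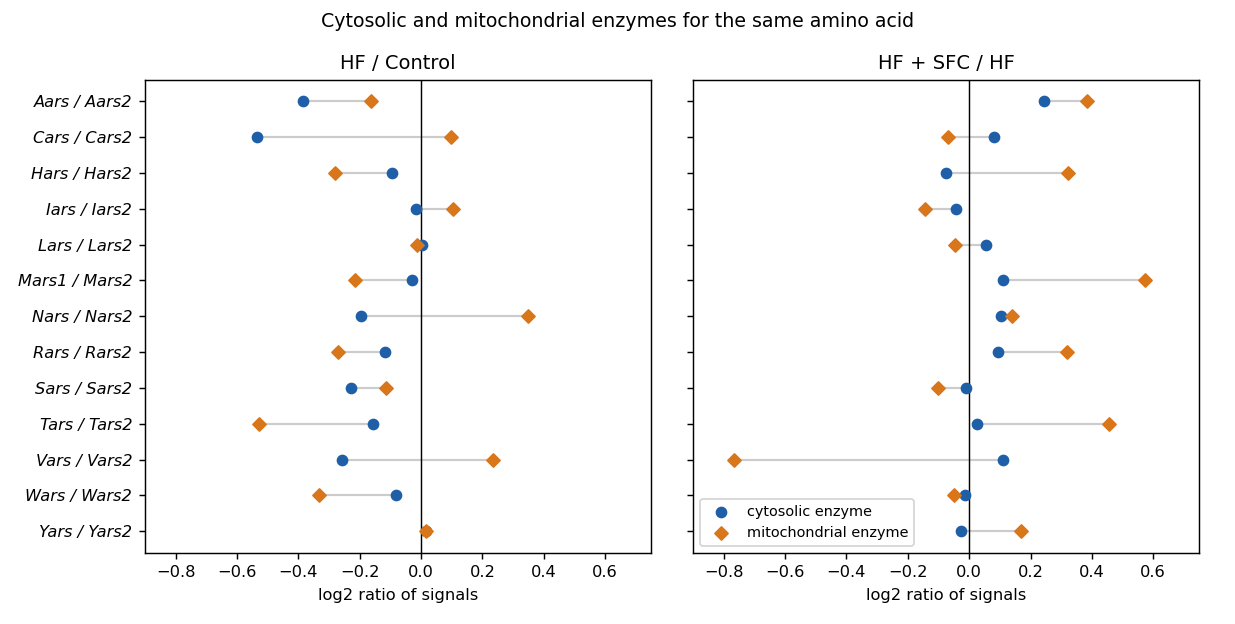
Log2 ratios of the cytosolic enzyme (circle) and the mitochondrial enzyme (diamond) for the 13 amino acids with both, in HF against Control and in HF + SFC against HF. The mitochondrial diamonds range from -0.77 for Vars2 to 0.57 for Mars2 in HF + SFC against HF.

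Several probe sets of one gene gave a measure of error within the arrays. For 24 of the 37 genes there were several, and for 19 of these the next brightest was also above the array median. The SD of the difference in log2 ratio between the brightest and the next was 0.50 in HF against Control (0.24 without Qars) and 0.35 in HF + SFC against HF, and the direction was shared in 11 and 10 of 19 genes. Of the 10 cytosolic enzymes with several probe sets above the median, all probe sets were lower in HF than in Control for Aars, Farsb, Iars, Nars and Sars, and none was higher throughout. For HF + SFC against HF, all were higher for Aars, Farsa and Farsb, and all lower for Hars, Sars and Wars.

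Of the 8 mitochondrial enzymes with several such probe sets, all were lower in HF for Tars2 and all higher for Iars2 and Yars2. Relative to HF, Lars2 and Wars2 in HF + SFC were lower throughout, and none was higher throughout. For Tars2 the other probe set gave 513, 430 and 367, so that only the brightest probe set had more signal in HF + SFC than in HF. For Hars2 the other gave 131, 173 and 150, opposite to the brightest in both comparisons. For Mars2 the other was below the array median on every array, at 21.2, 29.7 and 11.0. The mitochondrial median depended on the probe sets. It was 0.0075 in HF against Control with the mean of all probe sets of a gene, and -0.046 in HF + SFC against HF with the probe sets open to several transcripts left out.

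The remaining genes at the ends of the range gave the following on their other probe sets. The other Aars probe set gave 1311 (Control), 1009 (HF) and 1021 (HF + SFC). That of Cars gave 18.1, 29.9 and 25.6, below the array median, and the other mitochondrial asparagine probe set, of Nars2, gave 22.6, 32.8 and 34.5. For Eprs the others gave 4332, 3920 and 4007, then 3809, 4141 and 3703, and a dim one gave 3.96, 46.3 and 33.4. Aars thus had the same lower signal in HF on both probe sets, whereas Eprs had 1 bright probe set on which HF was highest. For Farsa the others gave 80.7, 97.4 and 144, then 40.4, 14.6 and 54.7, and then 24.6, 7.78 and 25.9. Hars gave 569, 580 and 547 on its other probe set. The other Iars probe set gave 2673, 2324 and 2445. For Hars the lowest array was HF + SFC on both probe sets, whereas for Farsa and Iars it depended on the probe set. Wars2 gave 158, 176 and 171 on its other probe set, and Iars2 gave 65.5, 93.8 and 117. Lars, Yars, Pars2, Sars2 and Aars2, also at the ends of the range, had 1 probe set each.

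**Figure D4:**
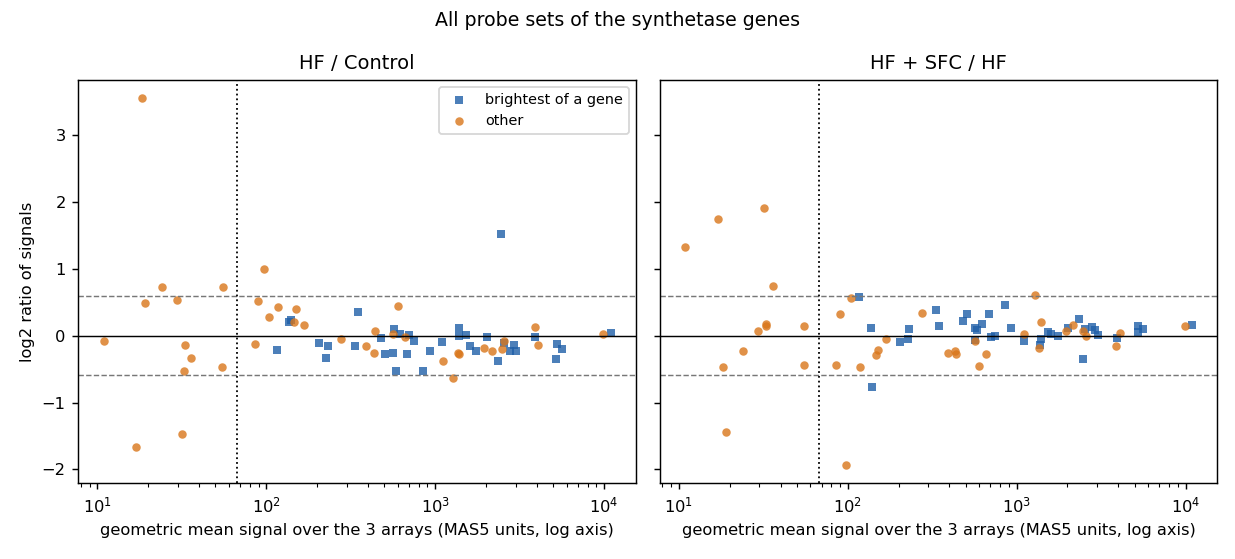
Log2 ratio against the geometric mean signal over the 3 arrays (log axis) for all 75 probe sets, squares for the brightest of each gene. The dotted line is the median signal of the HF array, and dashed lines mark 1.5-fold. Left of the dotted line the points scatter widely.

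Of the 61 probe sets above the array median on all arrays, 2 passed 1.5-fold in HF against Control and 2 in HF + SFC against HF. Of the 14 others, 6 passed in each comparison, with ratios from 0.317 to 11.7 and from 0.262 to 3.74. The members past the threshold on any probe set therefore came mostly from dim probe sets. Among the bright ones, a Farsb probe set with 1492, 959 and 1452 passed both ways, at 0.643 and 1.51.

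The other targets of ATF4, from a list of 32 of which 31 were measured, lay on both sides of 0. Their median log2 ratio was -0.030 in HF against Control, with 15 higher, and -0.072 in HF + SFC against HF, with 12 higher. Phgdh, the first enzyme of serine synthesis, had signals of 186, 345 and 357, and Slc7a5, a transporter of large neutral amino acids, had 81.7, 155 and 113. Cth, which makes cysteine, had 312, 164 and 236, and Eif4ebp1, a repressor of translation initiation, had 4734, 3558 and 3393. These were the highest and lowest of the list in HF among genes above the array median, and they went both ways. With iron added the lowest ratios to HF were Stc2 at 0.617-fold and Atf3, a stress-induced transcription factor, at 0.648-fold, and the highest were Cth at 1.44-fold and Psat1 at 1.33-fold. Of the 8 kinases and phosphatase subunits that act on eIF2 and their regulators, 7 were lower in HF (median -0.086), and 6 were above HF in HF + SFC (median 0.10). Ppp1r15a, which directs eIF2 dephosphorylation, gave 1114, 743 and 637, and Gcn1, an activator of the kinase GCN2, gave 468, 348 and 479.

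Other genes of mitochondrial translation had medians near those of the mitochondrial enzymes in HF. The 13 measured translation factors and amidotransferase subunits had medians of -0.11 in HF against Control and 0.082 in HF + SFC against HF. Mtfmt, which formylates the initiator tRNA, had signals of 330, 219 and 271, and Tufm, the elongation factor, had 2057, 2444 and 1986. Tsfm and Gfm1, also elongation factors, were the highest in HF + SFC against HF, at 1.44-fold and 1.37-fold. The 15 genes of mitochondrial tRNA processing and modification had medians of -0.13 and -0.11, with 10 of 15 lower in each comparison. Among them Cdk5rap1 had 659, 446 and 420, and Nsun3, a tRNA methyltransferase, had 775, 953 and 620.

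**Figure D5:**
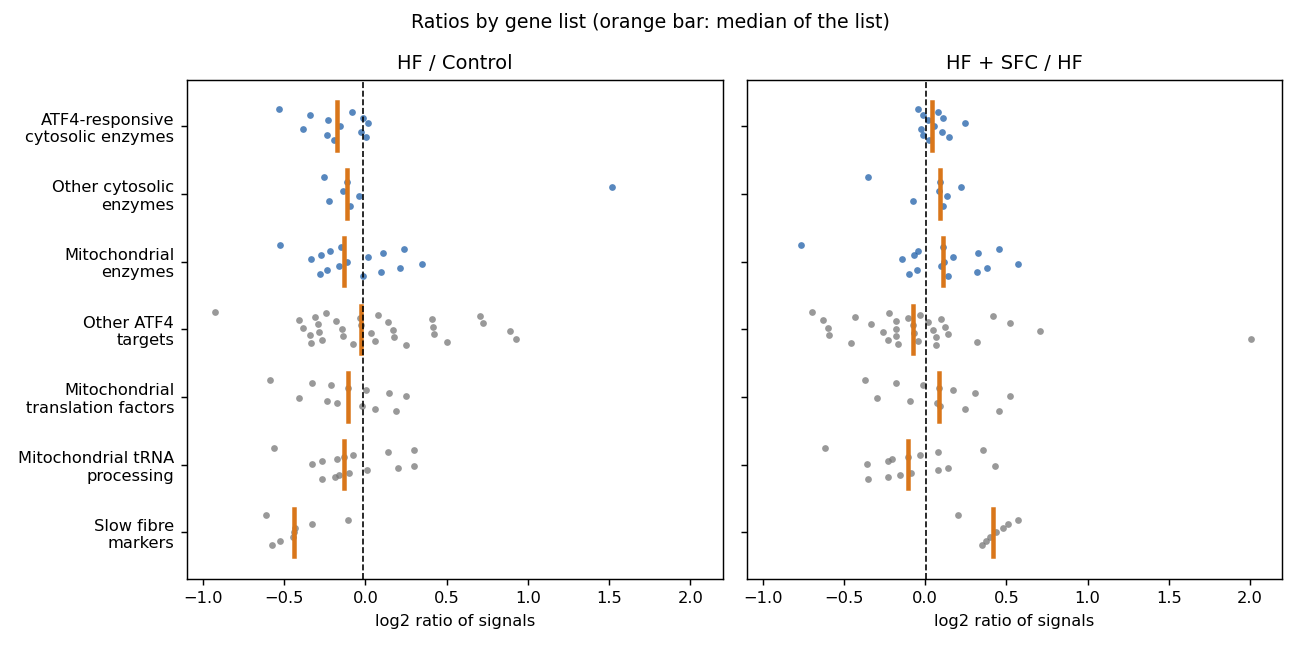
Log2 ratios of the genes of 7 lists in HF against Control and HF + SFC against HF, with an orange bar at the median of each list and a dashed line at the median of all genes above the array median. The medians of the enzymes of both compartments lie left of 0 in HF and right of 0 in HF + SFC, with single genes on both sides, and the medians of the slow fibre markers lie farther out; the other ATF4 targets are spread on both sides, with dim Slc7a11 at 2.01.

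In the cytosol the 6 genes listed as elongation factors, Eef1e1 among them by its symbol only, had medians of -0.040 and 0.091. The 25 initiation factors had -0.011 and 0.036. Both lists were closer to all genes in HF than the enzymes were. The 9 proteins related to synthetases were at 0.19 in HF against Control with 6 of 9 higher. They include editing enzymes and again Eef1e1, a protein of the multi-synthetase complex. Eef1e1 had signals of 1866, 2299 and 2329, lowest in Control. The 13 measured interferon-induced genes, listed because Wars is one of them, were at 0.0022 and 0.20.

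Several lists of cell type markers also moved between the arrays. In bulk muscle, fewer cells of a type and less RNA per cell cannot be told apart. The 8 skeletal muscle markers were all lower in HF than Control (median -0.14) and all higher in HF + SFC than HF (median 0.26), with summed signals of 377192, 340223 and 406521. The 8 slow fibre markers went the same way more strongly, at -0.44 and 0.42, with sums of 91697, 67671 and 87636. In the same comparisons the 10 fast fibre markers were at -0.14 and 0.22. The 8 endothelial markers moved little, at 0.022 and 0.075. Of the 10 adipocyte markers 7 were measured and 6 were higher in HF than Control (median 0.90, and -0.14 for HF + SFC against HF), with sums of 23680, 33552 and 30199. All 9 measured fibroblast markers were higher in HF (medians 0.44 and -0.057), with sums of 40251, 52287 and 53902, as were 8 of 10 leukocyte markers (medians 0.31 and -0.073), with sums of 3703, 4574 and 4364. None of these markers was at 0. In HF against Control the enzymes' lower signals were of the size of those of the muscle markers. In HF + SFC against Control all 8 muscle markers were higher (median 0.10). There 15 of 19 cytosolic enzymes were lower (median -0.094), and the mitochondrial median was -0.0048. The part of the cell makeup in the results was not tested.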

How the data were processed

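Each group was 1 array of pooled gastrocnemius RNA, so no replicate, test or interval was available, and the number of arrays limits the precision. The authors deposited 1 MAS5 intensity per probe set on a linear scale (MAS5 per the submitters' processing notes, version not given in the sources used here). The methods describe a mix of cDNA and the labels biotinylated cRNA. A single gene symbol was given for 34945 of the 45101 probe sets, several for 932 and none for 9160, and 64 more were controls. Gene IDs were looked up in RefSeq (GRCm38.p6) to bring symbols up to date, which succeeded for 34741 probe sets and all 37 genes.

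Log2 ratios were taken with no offset with Python 3.11.15, numpy 2.4.6 and pandas 2.3.3, and the code was tested on simulated data. Alternatives were the scaling, the offset, the filter on dim probe sets, the probe set for a gene, the threshold and the list membership. All members are named. All probe sets are given for the members past 1.5-fold and the 3 highest and 3 lowest ratios of each compartment, and for the other lists genes come from the 2 highest and 2 lowest above the array median. Class by compartment, enzymes outside the complex, lists with the other Qars probe set and Slc7a11 were added after values were seen. The members and lists were chosen with earlier results of these data known. Some items are not reported here.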

Additional observations from a re-analysis of the deposited data

How the results depend on the processing

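With 1 pooled array per group, no setting could be tested against replicate error, and signals near the array median limit Vars2, Mars2 and Pars2. No paired analysis was possible because each group has 1 array. With the mean of all probe sets, the mitochondrial median log2 ratio was 0.0075 in HF against Control and 0.066 in HF + SFC against Control, both turned in sign, the ATF4-responsive median in HF against Control was -0.068, and the cytosolic minus mitochondrial median -0.12. With probe sets that bind several transcripts left out, the last was -0.14 and the mitochondrial median -0.013 in HF against Control. In HF + SFC against HF these were 0.12 and -0.046, both turned, and against Control the mitochondrial median was 0.030. Quantile normalization turned the cytosolic minus mitochondrial median in HF against Control to 0.032. Without probe sets that bind several transcripts, Qars in HF against Control was -0.15, from its dimmest probe set, which was below the array median. It was 0.21 with the mean of all probe sets and -0.23 with its next brightest, a choice made after seeing the data. That choice gave -0.072 in HF + SFC against Control. Members past the threshold in HF against Control, HF + SFC against HF and HF + SFC against Control numbered 7, 6 and 8 with any probe set. Median centring, which moved the all-gene median to -0.076 in HF against Control, gave 3 there and 2 in HF + SFC against Control. In HF + SFC against HF, quantile normalization gave 2, and an offset of 50 or a threshold of 2-fold gave 0. Qars from its next brightest probe set gave 0 in HF against Control and 0 in HF + SFC against Control, and leaving out probe sets that bind several transcripts gave 0 in HF against Control. The cause of these differences was not tested beyond the change of probe set or threshold itself. Under median centring, the offset and the filter on dim probe sets, no median changed its sign or moved by 0.1. That limit was as large as many of the medians themselves. In HF + SFC against Control, median centring took the cytosolic median from -0.094 to -0.19 and the mitochondrial median from -0.0048 to -0.10.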
